A study of Mus musculus with 4 samples.

Results

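The genes described are the R-spondin receptors Lgr4, Lgr5 and Lgr6, their secreted ligands Rspo1, Rspo2, Rspo3 and Rspo4, and the membrane ubiquitin ligases Rnf43 and Znrf3. They were chosen by symbol and make up 9 of the 24442 genes in the count table. RNA was sequenced from cells of the mammary gland of 5-week-old female Lgr6-eGFP-CreErt2 mice, in which the Lgr6 locus drives green fluorescent protein together with a tamoxifen-inducible Cre recombinase. All libraries came from such mice, and no treatment is given. Lineage-negative cells were sorted on Lgr6, and 2 libraries were made of Lgr6-positive and 2 of Lgr6-negative cells. The labels do not give the lineage markers, the gate of the negative population, the number of reporter copies per mouse or whether animals were pooled. Nor do they say that replicates came from separate animals, so each p-value reflects the spread between these samples alone, and that spread may be technical.

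R-spondins are secreted proteins that strengthen Wnt signalling in cells that already receive a Wnt ligand. Rnf43 and Znrf3 tag Frizzled receptors and the Lrp5 and Lrp6 co-receptors for removal from the cell surface. An R-spondin bound to Lgr4, Lgr5 or Lgr6 draws the ligase away, so Wnt receptors accumulate. Lgr5 and Lgr6 are known as stem cell markers in intestine and skin, while Lgr4 is expressed in many epithelia. In the mammary gland R-spondin 1 is known as a hormone-induced growth signal.

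The 4 libraries held 6819127 to 7167465 counts each. Levels are given as CPM, the count scaled to the TMM-normalized size of its library. A count of 3 corresponded to 0.368 to 0.533 CPM. By counting error alone, an undetected gene may lie anywhere below that limit. Of the 9 genes, 8 had a count in at least 1 library and 6 had enough counts to be tested. The tissue label was checked against cell type markers. Luminal epithelial markers summed to 3464 to 3544 CPM in Lgr6-positive and 106 to 147 CPM in Lgr6-negative libraries, with none of the 8 genes at 0 counts. Leukocyte markers summed to 1993 to 2334 CPM in Lgr6-positive and 28904 to 32152 CPM in Lgr6-negative libraries. All 10 leukocyte genes had counts in every library except the second Lgr6-positive one, where Cd3e was at 0. Endothelial markers (1418 to 1724 against 134 to 184 CPM), keratinocyte markers (334 to 382 against 0.312 to 1.24 CPM) and red cell markers (598 to 650.6 against 3.91 to 18.4 CPM) were also at higher sums in Lgr6-positive libraries. The leukocyte sums rest largely on Lyz2, at 1040 and 1370 CPM in Lgr6-positive and 16972 and 18367 CPM in Lgr6-negative libraries. In Lgr6-positive libraries the keratinocyte sums rest largely on Krt1 (198 and 108 CPM) and Krt10 (153 and 181 CPM). Of the same list, Lor had no counts and Ivl 8 in the first Lgr6-positive library alone. By these lists the Lgr6-negative libraries carried leukocyte transcripts at a higher summed level than epithelial ones. The Lgr6-positive libraries carried markers of many cell types. In bulk libraries fewer cells of a type and less RNA per cell cannot be told apart.

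**Figure D1:**
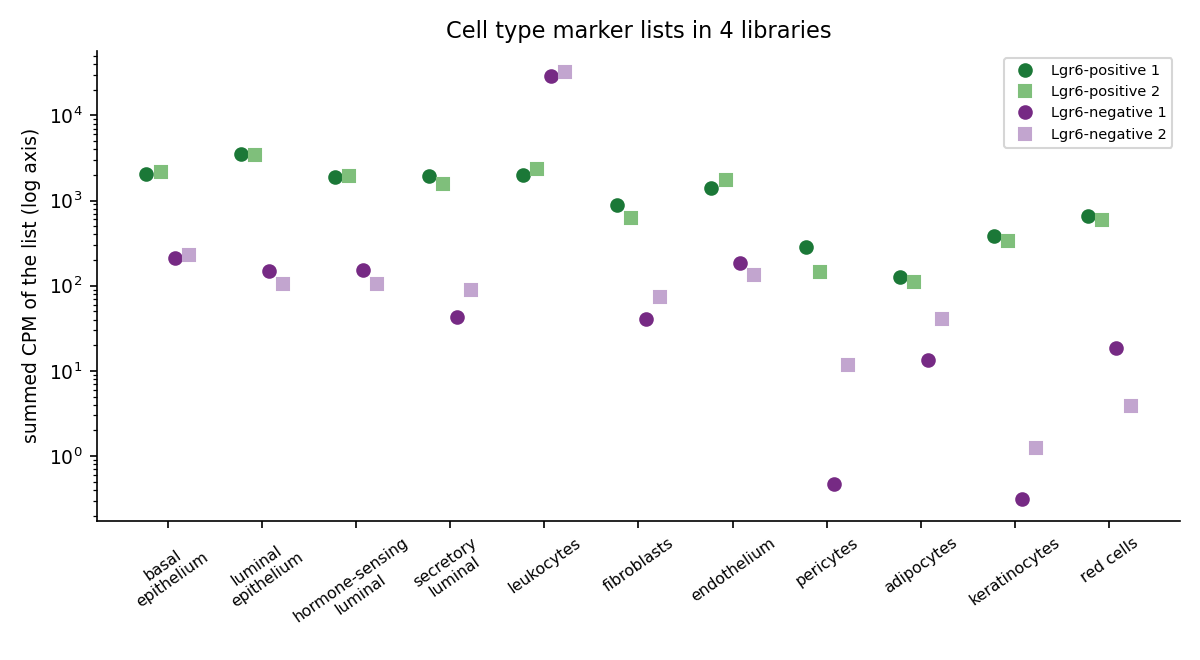
Summed CPM (log axis) of 11 lists of cell type markers in the 4 libraries, 1 point per library. The luminal list lies at 3464 to 3544 CPM in Lgr6-positive and 106 to 147 CPM in Lgr6-negative libraries, and the leukocyte list at 1993 to 2334 against 28904 to 32152 CPM.

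Upstream sequences are shown for Lgr6, Lgr4 and Rnf43, the tested members whose Lgr6-positive libraries all lay above the Lgr6-negative ones (values below) and for which RefSeq promoter windows were at hand. Each run is the 250 bases before the RefSeq start (GRCm38.p6), printed 5′ to 3′ on the gene's strand. Capitals mark a match, on either strand, to the GC box GGGCGG or the CCAAT box CCAAT. The Sp/KLF family binds the first and NF-Y the second. The Lgr6 window is chr1:135105277-135105526 on the minus strand, the Lgr4 window is chr2:109917397-109917646 on the plus strand, and the Rnf43 window is chr11:87662837-87663086 on the plus strand. The Rnf43 window lies before the RefSeq start but inside the gene as annotated in GENCODE M21, which begins at 87662722.
Lgr6: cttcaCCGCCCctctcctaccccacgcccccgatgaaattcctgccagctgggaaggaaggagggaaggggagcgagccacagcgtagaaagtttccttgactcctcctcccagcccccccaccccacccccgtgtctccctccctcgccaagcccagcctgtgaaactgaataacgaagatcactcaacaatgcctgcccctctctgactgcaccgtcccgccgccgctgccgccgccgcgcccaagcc
Lgr4: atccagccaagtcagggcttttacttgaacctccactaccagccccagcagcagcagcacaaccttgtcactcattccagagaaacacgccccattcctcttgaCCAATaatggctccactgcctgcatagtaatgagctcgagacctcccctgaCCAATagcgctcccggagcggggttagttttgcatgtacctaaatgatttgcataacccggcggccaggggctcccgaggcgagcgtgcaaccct
Rnf43: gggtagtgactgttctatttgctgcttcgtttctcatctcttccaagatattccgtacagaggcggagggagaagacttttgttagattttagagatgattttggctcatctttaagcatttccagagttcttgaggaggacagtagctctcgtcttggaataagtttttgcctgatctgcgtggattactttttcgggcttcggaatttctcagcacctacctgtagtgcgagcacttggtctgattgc
The Lgr4 window held 2 CCAAT boxes, which began 146 and 95 bases before the start. The Lgr6 window held 1 GC box on the opposite strand, 245 bases before the start, and the Rnf43 window held neither element. The Rspo4 window, not printed because the gene was too low to test, held 2 GC boxes. Of 32851 RefSeq windows of this length, 33.8% held a CCAAT box and 32.7% a GC box. GC content was 65.2% for Lgr6, 55.6% for Lgr4 and 44.4% for Rnf43, against a median of 52.4%. The TCF/LEF motif, which the Wnt effectors bind, was searched on both strands as ATCAAAG, or with TT, AA or TA in place of the leading AT. No match lay in any of the 6 windows found for 5 members (Lgr6, Lgr4, Rspo1, Rspo4 and, with 2 starts, Rnf43), while 14.8% of all windows held a match. The TATA box TATAAA was likewise in none of the 6 windows and in 12.4% of all.

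The receptors were measured first, beginning with the gene on which the sort was based. Lgr6, which lies on chromosome 1 from 134983301 to 135105276 (GENCODE M21, GRCm38, minus strand), was at 21.1 and 83.0 CPM in the Lgr6-positive libraries and at 0.468 and 1.78 CPM in the Lgr6-negative libraries. Both positive libraries lay above both negative ones, in the direction of the labels, and the positive libraries differed from each other. The log2 fold change, Lgr6-positive over Lgr6-negative, was 5.52 (SE 1.47), and edgeR's quasi-likelihood test gave an adjusted p of 0.0510, over the threshold of 0.05. Since the sort used this locus, the difference is a check on the labels and not a finding. Over the alternative settings the adjusted p ran from 8.26e-05 in DESeq2 to 0.349 without replicate 2 of the Lgr6-positive population.

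Lgr4, the broadly expressed receptor of the family on chromosome 2 from 109917647 to 110014257 (plus strand), was the member that passed the test. It was at 48.1 and 125 CPM in Lgr6-positive and at 4.99 and 7.29 CPM in Lgr6-negative libraries. The populations did not overlap, and the log2 fold change was 3.81 (SE 0.99, adjusted p = 0.0472). It passed under 9 of 16 alternatives, with adjusted p from 2.04e-04 in DESeq2 to 0.294 in edgeR without replicate 2 of the Lgr6-positive population. Leaving out Lgr6-negative replicate 1 (0.0745) or replicate 2 (0.0505) ended the call too, as did limma-voom (0.136).

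Lgr5, the intestinal stem cell receptor on chromosome 10 from 115450311 to 115587780 (minus strand), followed neither population. It was at 2.33 and 15.6 CPM in Lgr6-positive and at 25.4 and 0.711 CPM in Lgr6-negative libraries. The highest and the lowest value both came from Lgr6-negative cells, so the groups overlapped. The log2 fold change of -0.55 (SE 1.90, adjusted p = 0.915) became 3.62 without replicate 1 of the Lgr6-negative population.

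Levels were compared between receptors per kilobase of annotated exon (CPM per kb), a scale that assumes all annotated exons are transcribed. Lgr4 led in both Lgr6-positive libraries, with 71.2% and 60.9% of the summed receptor level. Lgr6 held 26.8% and 34.8% of that sum, and Lgr5 1.98% and 4.36%. Thus, on this scale, Lgr6 was not the most abundant R-spondin receptor transcript in either library sorted as Lgr6-positive. All mice carried the reporter at the Lgr6 locus, and its effect on the level of Lgr6 transcript was not tested. The summed level of the 3 receptors was 11.5 and 34.8 CPM per kb in Lgr6-positive and 3.39 and 1.57 CPM per kb in Lgr6-negative libraries. In Lgr6-negative cells the order was not shared, as Lgr5 made up 73.0% in the first library and Lgr4 79.0% in the second.

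**Figure D2:**
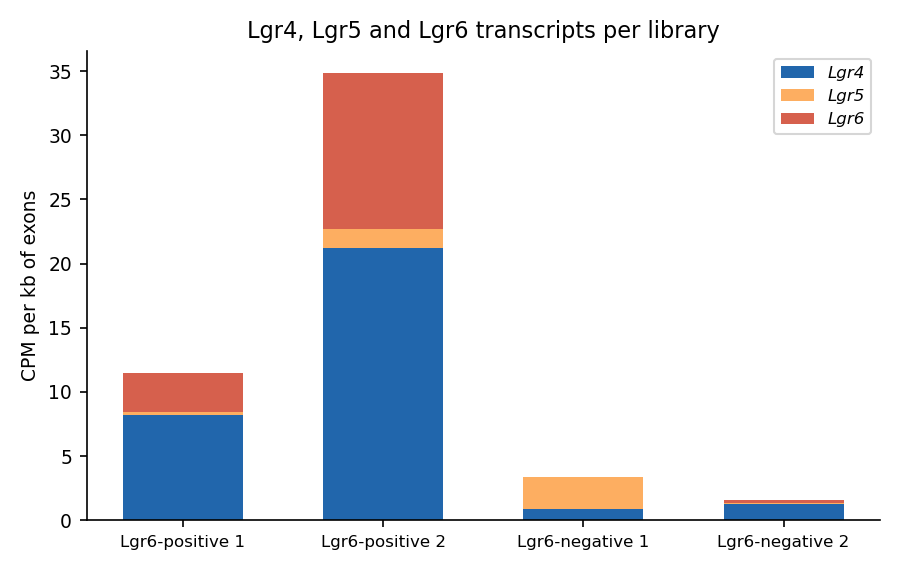
Stacked bars of the level of Lgr4, Lgr5 and Lgr6 in CPM per kb of exons, 1 bar per library, starting at 0. Lgr4 takes 71.2% and 60.9% of the bar in the Lgr6-positive libraries, and Lgr5 takes 73.0% in the first Lgr6-negative library.

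Nearly all R-spondin counts lay in the first library of each population and came from Rspo1, the ligand known in the mammary gland. Rspo1 (chromosome 4, 124986430 to 125009099, plus strand) had 195 and 2 counts in Lgr6-positive cells, and 101 and 0 in Lgr6-negative cells. The first library of each population held nearly all of them, so the populations overlapped. Per kilobase of exon, Rspo1 was at 12.3 in the first Lgr6-positive library, above Lgr4 (8.17) and the 3 receptors summed (11.5), and at 8.13 in the first Lgr6-negative library, where the receptors summed to 3.39. In the second libraries it was at 0.131 and 0 CPM per kb. The log2 fold change of 0.61 (SE 2.42, adjusted p = 0.927) turned to -4.86 without replicate 1 of the Lgr6-positive population. Rspo4, the R-spondin known for its role in nail development (chromosome 2, 151842927 to 151874668, plus strand), had 22 and 1 counts in Lgr6-positive and none in Lgr6-negative libraries.

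Rspo3, which in other organs is made by stromal and endothelial cells, had 12 counts, all in the first Lgr6-positive library. It lies on the minus strand of chromosome 10 from 29452416 to 29535867. A gene model on the other strand covers 13.1% of its exonic bases, and the strand setting of the counting is not given, so part of these counts may belong to that gene. Rspo2 (chromosome 15, 43020794 to 43170826, minus strand) had no counts in any library, which by counting error alone allows a level of up to 0.368 to 0.533 CPM. Rspo2, Rspo3 and Rspo4 were not tested. In that first Lgr6-positive library, fibroblast markers summed to 887 CPM and pericyte markers to 285 CPM, against 629 and 143 CPM in the second. In the Lgr6-negative libraries the fibroblast list was at 40.3 CPM in the first, which held the Rspo1 counts, and at 74.7 CPM in the second. The part of these cell types in the R-spondin counts was not tested.

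**Figure D3:**
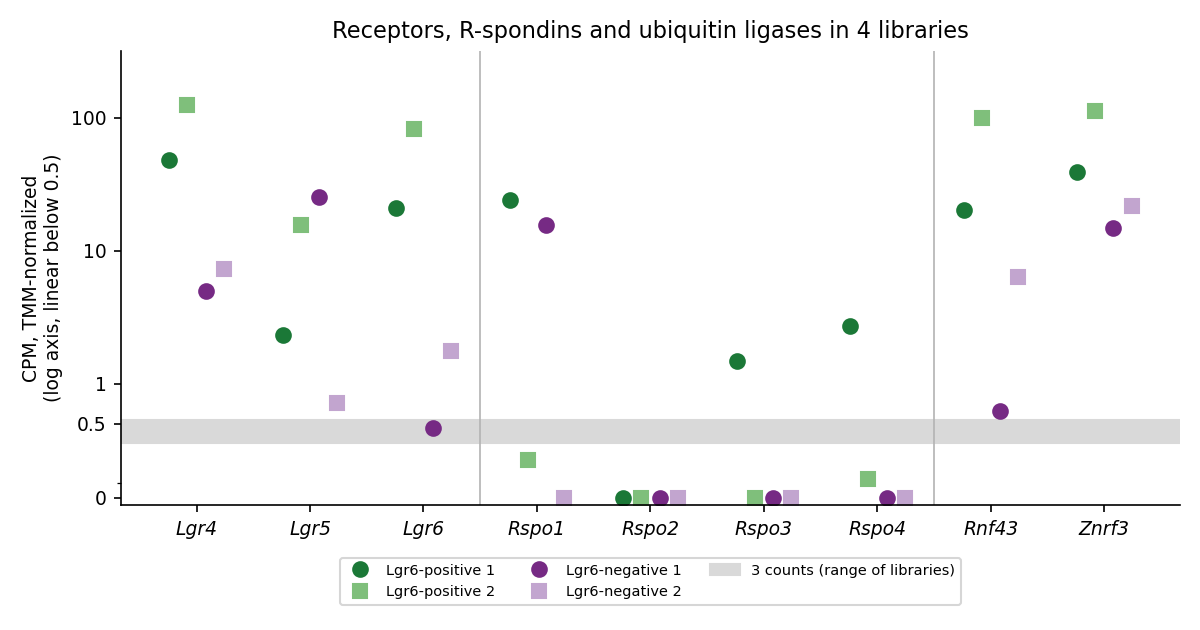
CPM of each gene in the 4 libraries (log axis, linear below 0.5), 1 point per library, with the grey band marking 3 counts. Lgr4, Lgr6, Rnf43 and Znrf3 have both Lgr6-positive points above both Lgr6-negative points, whereas Lgr5 and Rspo1 overlap and Rspo2 is at 0 throughout.

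The ligases lay on the same side as Lgr4 and Lgr6 without passing the test. Rnf43 (chromosome 11, 87662722 to 87735539, plus strand) was at 20.1 and 99.3 CPM in Lgr6-positive and at 0.624 and 6.40 CPM in Lgr6-negative libraries. The populations did not overlap, with a log2 fold change of 4.09 (SE 1.47, adjusted p = 0.121). It passed under 6 of 16 alternatives, among them DESeq2 (0.00963) and leaving out Lgr6-positive replicate 1. Without Lgr6-negative replicate 2 it passed with the filter applied anew, but not with the same genes tested. In edgeR without Lgr6-positive replicate 2 it did not pass, at a log2 fold change of 2.49.

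Znrf3 (chromosome 11, 5276324 to 5444847, minus strand) was at 39.2 and 112 CPM in Lgr6-positive and at 14.8 and 21.7 CPM in Lgr6-negative libraries. Again the populations did not overlap, but the difference was smaller, at a log2 fold change of 2.05 (SE 0.93, adjusted p = 0.212), and passed under none of the 16 alternatives. Per kilobase of exon, Znrf3 was at 1.62 and 0.940 times the level of Rnf43 in the Lgr6-positive libraries and at 19.7 and 2.82 times that level in the Lgr6-negative libraries. Znrf3 was therefore the more abundant ligase transcript in both Lgr6-negative libraries, with no order common to the Lgr6-positive ones. The difference in this ratio between the populations was not tested.

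Of the 6 tested genes, 1 was higher in Lgr6-positive cells and none was lower, where 4.49% of all 11661 tested genes were higher and 4.57% lower (9.06% in either direction). Those shares were 524 and 533 genes, or 628 and 327 when libraries were scaled by size alone. By an unadjusted p under 0.05, Lgr6 (0.00469) and Rnf43 (0.0219) stood beside Lgr4 (0.00410). The count of higher genes was 3 in DESeq2 and 0 in limma-voom, and none was lower under any alternative. In 4 of the 6, Lgr4, Lgr6, Rnf43 and Znrf3, both Lgr6-positive libraries lay above both Lgr6-negative ones, as did 30.0% of all tested genes. The median log2 fold change of the 6 was 2.93, beside 0.10 over all tested genes. Without Lgr6, the gene used for the sort, 3 of 5 did not overlap and the median was 2.05. Lgr6 (3 and 10 counts in Lgr6-negative libraries) and Rnf43 (4 and 36) needed Lgr6-positive libraries to pass the count filter. These counts of genes and these medians therefore depend on that filter. Scaling by library size alone shifted fold changes upward, by a median of 0.45 on the log2 scale. In the same libraries 7 of 8 luminal markers were higher, at a median log2 fold change of 5.00, and 8 of 10 leukocyte markers were lower, at -3.81. Endothelial markers were higher in 5 of 7. The part of epithelial, endothelial, leukocyte and other cell content in the values of Lgr4, Rnf43 and Znrf3 was not tested.

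**Figure D4:**
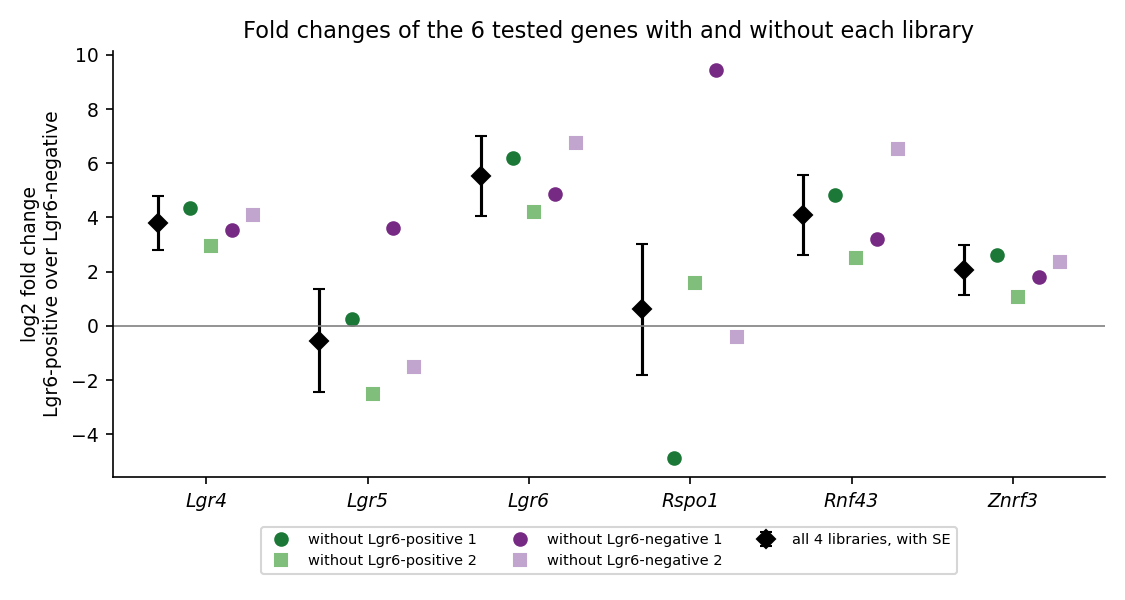
Log2 fold change, Lgr6-positive over Lgr6-negative, of the 6 tested genes with all 4 libraries (diamonds, bars show the SE) and with each library left out (coloured points). Lgr4, Lgr6, Rnf43 and Znrf3 stay above 0 throughout, while Lgr5 and Rspo1 change sign.

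The receptors and ligases also differed between the Lgr6-positive libraries. The second library was above the first by 2.60 times for Lgr4, with a 95% counting interval from 2.31 to 2.93. The ratio was 3.93 for Lgr6 (3.32 to 4.68), 4.94 for Rnf43 (4.17 to 5.88), 2.86 for Znrf3 (2.52 to 3.26) and 6.69 for Lgr5 (4.11 to 11.5). Reads were amplified and carry no molecular identifiers, so such an interval reflects counting error alone. Across the 10629 tested genes with counts in both libraries the median ratio was 0.986 and the middle 50% of genes lay between 0.457 and 1.88. These 5 genes lay above 83.2% to 94.8% of those genes, and Rspo1 lay near the other end, at 0.0106 (0.00127 to 0.0388) and above 0.753% of them. In the first and second of these libraries the luminal list summed to 3544 and 3464 CPM and the basal list to 2041 and 2174 CPM. Leukocyte markers were at 1993 and 2334 CPM and endothelial markers at 1418 and 1724 CPM. Fibroblast markers were at 887 and 629 CPM and pericyte markers at 285 and 143 CPM. The part of cell content in the differences between the Lgr6-positive libraries was not tested.

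A shift of this size within 1 population bears on the fold changes above. With replicate 2 of the Lgr6-positive population left out, the log2 fold change of Lgr4 was 2.94, that of Lgr6 4.19, that of Rnf43 2.49 and that of Znrf3 1.08. None of these passed (adjusted p = 0.294, 0.349, 0.598 and 0.762 in edgeR's test).

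Genes with the most similar pattern were sought among the 11661 tested genes by the root mean square distance between centred log2 CPM profiles over the 4 libraries. For Lgr6 the nearest were Dach1, Orc5, Trib2, Nes and Anxa9, at distances of 0.13 to 0.17 log2 units. Dach1, a transcriptional regulator, had 97 and 399 counts in Lgr6-positive and 1 and 4 in Lgr6-negative libraries, the same order as Lgr6. Among the other members, Rnf43 ranked 170 from Lgr6 (0.68) and Lgr4 ranked 324 (0.83), so many unrelated genes lay nearer. For Lgr4 the nearest were Zfp191, Mkrn2, Vegfc, Clmn and Ano9, at 0.04 to 0.18 log2 units. Zfp191, a zinc finger gene, had 256 and 619 counts in Lgr6-positive and 19 and 26 in Lgr6-negative libraries. The nearest to Lgr5 were Ulk3, Ppp2r5b, Galc, Zfp738 and Lnp, at 0.13 to 0.30, all high in the second Lgr6-positive and the first Lgr6-negative library. Galc, the lysosomal galactosylceramidase gene, had 63 and 263 against 392 and 13 counts. With 4 libraries, such likeness is a description only.

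Of the Wnt receptors that Rnf43 and Znrf3 remove, 9 of 12 were tested, 1 was higher and 8 did not pass, where 4.49% of all tested genes were higher. Their median log2 fold change was 2.20, beside 0.10 over all tested genes. In 7 of the 9 both Lgr6-positive libraries lay above both others, as in 30.0% of all tested genes. Fzd6 (51 and 0 counts in Lgr6-negative libraries) and Fzd1 (19 and 0, named after its values were seen) needed Lgr6-positive libraries to pass the count filter. The 7 of 9 and the median therefore depend on that filter. The higher gene was the co-receptor Lrp5, at 171 ± 56.2 CPM in Lgr6-positive against 28.5 ± 13.8 CPM in Lgr6-negative cells (mean ± SD here and below, n = 2 libraries per population). Its log2 fold change was 2.59 (SE 0.66, adjusted p = 0.0442), a call lost without replicate 1 of either population (0.0957 for the Lgr6-positive and 0.119 for the Lgr6-negative) and in limma-voom (0.0534), in a range from 0.00134 to 0.181. The fold change of Lrp5 reached 3.20 on the log2 scale without Lgr6-negative replicate 2. Its partner Lrp6 was at 184 ± 7.62 against 63.6 ± 40.0 CPM (log2 fold change 1.53, adjusted p = 0.156). The Frizzled receptor Fzd6 had 1070 and 272 counts against 51 and 0 (4.37, adjusted p = 0.151). Fzd6 passed under 7 of 16 alternatives, among them DESeq2 (0.0187), edgeR without Lgr6-positive replicate 2 (1.49e-04) and edgeR without Lgr6-negative replicate 1 (8.39e-05), and its fitted value ran from 3.10 to 12.2 on the log2 scale. Fzd4 had 500 and 463 against 96 and 31 (2.55, adjusted p = 0.164) and passed in DESeq2 alone (0.0310). The Dishevelled adaptors Dvl1 (0.22, adjusted p = 0.967) and Dvl3 (1.80, 0.462), which link Frizzled to the ligases, did not pass, and Dvl2 was not tested.

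Heparan sulfate proteoglycans bind R-spondins and Wnt proteins at the cell surface. Of 10 genes 8 were tested, 4 were higher and 4 did not pass, where 4.49% of all tested genes were higher. The median log2 fold change of the 8 was 2.69, beside 0.10 over all. Syndecan 4 (Sdc4), reported as an R-spondin receptor in its own right, was at 826 ± 42.2 CPM in Lgr6-positive and 72.9 ± 18.3 CPM in Lgr6-negative cells (log2 fold change 3.50, SE 0.39, adjusted p = 0.00143). Syndecan 1 (Sdc1), an epithelial syndecan with a role in Wnt signalling of the mammary gland, was at 139 ± 25.4 against 16.2 ± 8.30 CPM (3.10, SE 0.74, adjusted p = 0.0346). The glypican gene Gpc6 had 471 and 1282 counts in Lgr6-positive against 1 and 1 in Lgr6-negative libraries, which makes a 657-fold ratio (95% counting interval 182 to 5430, adjusted p = 0.00319). Gpc4, another glypican, had 229 and 147 counts against none and was 46.6-fold higher over a floor of 3 counts per library (adjusted p = 0.0448). That floor reflects counting error alone, so the fold is not a strict lower limit. Without replicate 1 of the Lgr6-negative population 2 of these 4 were called, as Sdc1 (0.0787) and Gpc4 (0.0670) no longer passed, and Gpc4 also missed without replicate 2 (0.0665). Sdc1 missed in limma-voom too (0.0507), and its log2 fold change was 3.73 without Lgr6-negative replicate 2. The ratio of Gpc6 was 348 without replicate 2 and 977 without replicate 1 of the Lgr6-positive population. Gpc4 and Gpc6 passed the count filter only through their Lgr6-positive libraries, so the share called depends on that filter.

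Wnt ligands, which R-spondins need in order to act, were present in few forms. Of 19 genes 9 had no counts in any library and 6 were tested, of which 3 were higher and 3 did not pass, where 4.49% of all tested genes were higher. Wnt5a had 821 and 908 counts in Lgr6-positive cells and none in Lgr6-negative cells, a level 215-fold over a floor of 3 counts per library (adjusted p = 0.00284). Wnt5b had 307 and 263 counts against none, 70.9-fold over that floor (adjusted p = 0.0234). The floor reflects counting error alone, while replicates differed beyond it, as with the 101 and 0 counts of Rspo1 in Lgr6-negative libraries. These folds are therefore not strict lower limits. Wnt4, known as a Wnt gene downstream of progesterone in the mammary gland, was at 91.3 ± 12.5 against 0.533 ± 0.754 CPM (7.41 on the log2 scale, SE 1.52, adjusted p = 0.0187). With 0 and 6 counts in Lgr6-negative cells, that value was 6.38 without replicate 1 and 12.4 without replicate 2 of that population. Wnt7b had 117 and 14 counts against 0 and 4 (4.45, adjusted p = 0.322). The median over the 6 was 5.93, or 5.30 with genes absent from Lgr6-negative cells set at that floor, beside 0.10 over all tested genes. Wnt4, Wnt5a, Wnt5b and Wnt7b passed the count filter only through their Lgr6-positive libraries. The share called and this median therefore depend on which genes the filter admitted. In these libraries the luminal list was at 3464 to 3544 against 106 to 147 CPM, and the fibroblast list at 629 to 887 against 40.3 to 74.7 CPM. Their part in the Wnt and proteoglycan counts was not tested.

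Target genes of beta-catenin had calls in both directions. Of 20 genes 13 were tested, with 2 higher, 1 lower and 10 not passing, where 4.49% of all tested genes were higher and 4.57% lower. Their median log2 fold change was 0.24, beside 0.10 over all tested genes. Sox9, an epithelial progenitor transcription factor, was at 337 ± 78.3 against 24.5 ± 25.6 CPM (3.78 on the log2 scale, SE 0.84, adjusted p = 0.0263). The cyclin D1 gene Ccnd1 was at 280.4 ± 31.5 against 24.8 ± 15 CPM (3.50, SE 0.62, adjusted p = 0.0105). A gene on the other strand covers 23.4% of the exonic bases of Ccnd1. The strand setting is not given, so part of the Ccnd1 counts may belong to that gene. Leaving out Lgr6-negative replicate 1 or replicate 2 gave log2 fold changes of 2.97 and 5.70 for Sox9, and of 4.28 and 2.97 for Ccnd1, all called. Cd44, an adhesion receptor that leukocytes also carry, was lower, at 345 ± 69.8 against 2156 ± 35.5 CPM (-2.64, SE 0.28, adjusted p = 0.00130). Myc was at 162 ± 31.4 against 40.3 ± 4.16 CPM (adjusted p = 0.0664) and passed under 4 of 16 alternatives. DESeq2 called 6 genes of the list higher and 2 lower.

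The 7 genes of the list that were too low to test are named after their values were seen. Axin2, a widely used reporter of beta-catenin activity, had 5 counts in the first Lgr6-positive library and none elsewhere. Nkd2 had 6 and Notum 3 counts in that library alone. Nkd1 had 1 count there and 2 in the first Lgr6-negative library, while Sp5, Dkk1 and Dkk4 had none in any. Rnf43, Znrf3 and Lgr5 are themselves known as targets of the pathway. Rnf43 and Znrf3 had their highest counts, 784 and 887, in the second Lgr6-positive library. Lgr5 had its highest count, 163, in the first Lgr6-negative library. Also named after their values were seen, the pathway's transcription factor Tcf7 had 25 and 13 counts against 187 and 274 (log2 fold change -4.04, adjusted p = 0.0978) and Lef1 had 35 and 2 against 28 and 239 (-3.35, adjusted p = 0.350). Both are also T lymphocyte genes, and the T cell gene Cd3e had 58 and 0 counts against 451 and 368. The part of T cells in these values was not tested.

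Genes that accompany Lgr5 in intestinal stem cells were mixed as well. Of 12 genes, 5 of which are also in the target list, 9 were tested, and 6 of these did not pass, while 2 were higher and 1 lower, where 4.49% and 4.57% of all tested genes were. Besides Sox9 and Cd44, the ion cotransporter gene Slc12a2 was called, at 1049 ± 74.4 against 66.4 ± 47.1 CPM (3.98 on the log2 scale, SE 0.54, adjusted p = 0.00329). Leaving out Lgr6-negative replicate 1 or replicate 2 gave 4.97 and 3.38. Smoc2, a matricellular protein gene, had 17 and 161 counts against none and did not pass (adjusted p = 0.102). Olfm4, named after its value was seen, had no counts in any library. The median of the 9 was 3.98, or 3.79 with genes absent from Lgr6-negative cells set at the floor, beside 0.10 over all tested genes. Smoc2 passed the count filter only through its Lgr6-positive libraries. The same held for Tnfrsf19 (0 and 0 counts in Lgr6-negative libraries) and Rgmb (2 and 1), and Ephb3 (11 and 2) needed an Lgr6-positive library too. These genes were named after their values were seen. The median therefore depends on that filter.

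**Figure D5:**
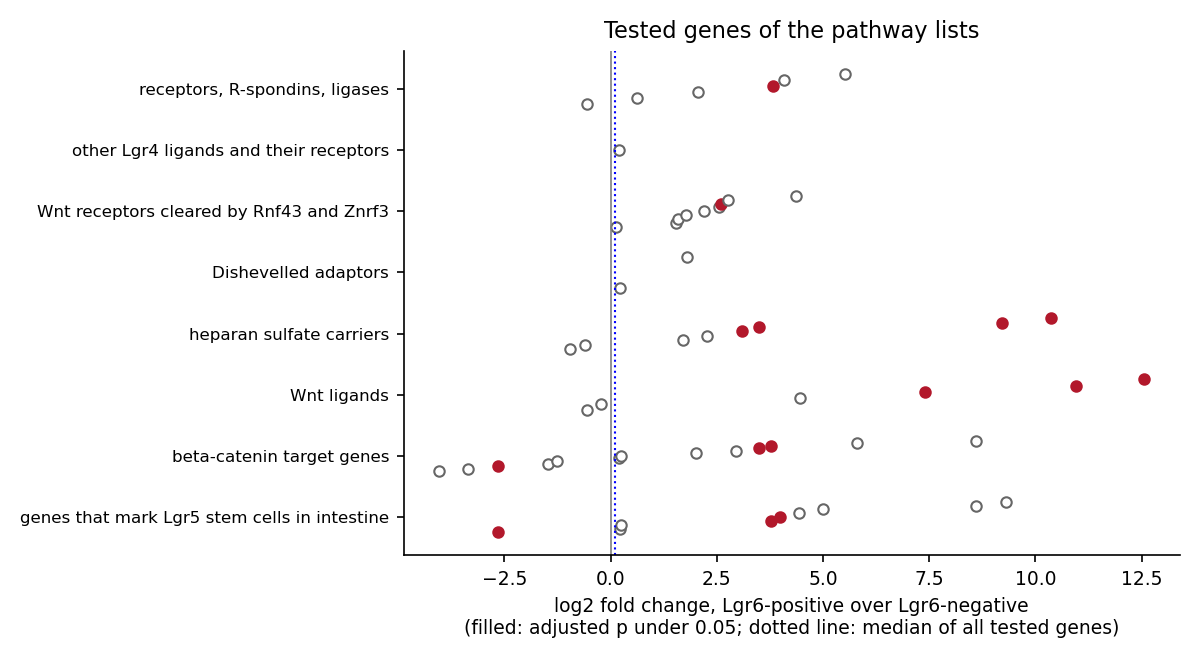
Log2 fold change of every tested gene in 8 lists, with filled points for adjusted p under 0.05 and a dotted line at the median of all tested genes (0.10). Proteoglycans and Wnt ligands hold 4 and 3 calls to the right, and beta-catenin targets spread to both sides. Where a gene had no counts in Lgr6-negative cells, its plotted value depends on the fit and is no bound.

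Other relatives and ligands gave little. The hormone receptors of the wider leucine-rich repeat receptor family (Fshr, Lhcgr, Tshr, Rxfp1 and Rxfp2) had no counts apart from 3 of Lhcgr in the first Lgr6-positive library. Lgr4 has also been described as a receptor for norrin (Ndp) and RANK ligand (Tnfsf11). Ndp had no counts, and Tnfsf11 had 3 and 0 counts in Lgr6-positive and 4 and 11 in Lgr6-negative libraries. Tnfrsf11a, the RANK receptor gene, was at 33.6 ± 1.95 against 29.3 ± 18.9 CPM (0.20 on the log2 scale, SE 1.02, adjusted p = 0.948), and its sign turned without replicate 1 of the Lgr6-negative population (-0.36).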

How the data were processed

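Expected counts, as deposited by the authors, cover 24442 genes in 4 libraries and are not scaled for depth. The submitters' processing notes name RSEM 1.2.22, STAR 2.4.2a and the mouse build mm10. The annotation, the strand setting and any trimming were not given in the sources used here. Per the labels' protocols, RNA of 7 to 25 pg per µl (integrity number 5 to 8) was amplified over 18 PCR cycles and sequenced in paired reads of 50 bases. The table's columns were matched to samples by their descriptions.

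Values were rounded to whole counts (3.36% to 4.86% were fractional) and analysed with edgeR 4.0.16 in R 4.3.3: filterByExpr (minimum count 10, minimum total 15), TMM, glmQLFit and glmQLFTest on group, Benjamini-Hochberg adjustment over 11661 genes. Each SE was taken from the fold change (log2) and its F statistic, as |log2 fold change|/√F. Alternatives used other scalings, filters, DESeq2 1.42.0, limma 3.58.1 (voom), a replicate block and leave-one-out fits. Replicates of a population differed beyond counting noise (chi-square per degree of freedom 100.9 and 86.4). Exon lengths and positions came from GENCODE M21, promoters from RefSeq.

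The members, lists and naming rule were chosen with earlier results of these data known, and the promoter motifs other than TCF/LEF after the windows were searched. The rule named all members, from each pathway list up to 4 tested genes with the smallest p, from each cell type list up to 3, and for each receptor the 5 nearest genes (log2 CPM, prior count 2), passing over ribosomal protein genes and numbered gene models.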

Additional observations from a re-analysis of the deposited data

How the results depend on the processing

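In the Lgr6-positive libraries 524 of 11661 genes were higher and 533 lower. Without a filter these counts were 967 and 854, and in DESeq2 1412 and 1003. Scaling by library size alone left 327 lower and moved the share of calls that were higher from 49.6% to 65.8%, and DESeq2 moved it to 58.5%. Leaving out 1 library gave 298 to 956 higher and 263 to 1030 lower genes. Among the members, 1 was higher; it was 2 with DESeq2 size factors, library size scaling, Rn45s (ribosomal RNA precursor, 14.5% to 30.8% of counts) left out or the stricter filter, 3 without a filter, in DESeq2 or with the block, 0 in limma-voom, and 0 to 3 in leave-one-out fits. Lgr6 passed at a log2 fold change of 5.58 with DESeq2 size factors, 5.997 with library size scaling, 5.52 without Rn45s, 5.51 without a filter, 5.53 with the stricter filter and 5.60 in DESeq2. Rnf43 passed at 4.08 without a filter and 4.15 in DESeq2. Lgr4 missed in limma-voom at 3.67. Leave-one-out ranges were 2.94 to 4.34 for Lgr4, 4.19 to 6.76 for Lgr6, 2.49 to 6.56 for Rnf43, -2.51 to 3.62 for Lgr5 and -4.86 to 9.44 for Rspo1. Those of Tnfrsf11a (-0.36 to 1.08) and Dvl1 (-0.96 to 1.68) also crossed 0. Lgr5 turned to 0.36 in limma-voom. With the replicate number as a block, Lgr6 passed at 5.49 and Rnf43 at 4.42, Lgr5 was at 0.40, and 678 genes were higher and 662 lower. Over all tested genes, same-numbered libraries did not deviate together (correlation -0.0202). With 2 libraries per population this cannot decide whether the numbers pair them, and the labels do not say. The causes were not tested. Fits that left out a library but kept the same genes were added after the data were seen. Levels below 3 counts, as for Rspo2, were beyond the depth.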
